A study of Mus musculus with 35 samples.

Results

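Enteroendocrine cells of the mouse small intestine were examined as wells of plate-based single-cell sequencing, in which each well received 1 sorted cell. A well was taken as enteroendocrine when it held at least 1500 counts of genes and when Chga and Chgb, the genes of chromogranin A and B, together gave 0.5% or more of those counts. By this rule 84 of 1209 kept wells were enteroendocrine, 7 of 494 wells taken directly from intestine and 77 of 715 wells from organoids. Chga and Chgb chose the wells, so their levels are given as a description and carry no test, and the same holds for the number of wells per library.

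Cells were counted by CEL-seq, which tags each transcript at its 3′ end with 2 barcodes, one of 4 random bases for the molecule and one for the well. All mice were C57BL/6. Organoids are epithelial structures that isolated crypts form in Matrigel with EGF, R-spondin and Noggin, and each organoid genotype came from crypts of 1 mouse, with passages of that culture as replicates. Reg4-positive cells (2 replicates) were sorted for dsRed from Reg4-dsRed-knock-in organoids, Lgr5-positive cells (1 replicate) were sorted from Lgr5-GFP-DTR organoids, and whole organoid cells (2 replicates) were taken at random from wild-type organoids. YFP cells (5 plates) were sorted from intestine 5 days after labelling by Lgr5-driven Cre, which switches on YFP at the Rosa26 locus in Lgr5-expressing cells and leaves it on in their descendants. Lgr5-EGFP cells (2 plates) were sorted from intestine for the reporter itself, and Lgr5 marks the stem cells at the base of crypts. The labels do not say whether the intestinal plates came from different animals, so the p-values speak only of the spread among passages and plates.

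Enteroendocrine cells are scattered hormone-producing cells of the gut epithelium that arise from crypt stem cells through a step marked by the transcription factor Neurog3. They store peptide hormones or amines in dense-core granules, which granins help to form, and release them in response to nutrients, irritants or nerve signals. Enterochromaffin cells are the serotonin-making members of this family, while other members make secretin, cholecystokinin, ghrelin, somatostatin, GIP, glucagon-like peptides, peptide YY or neurotensin, often in combination.

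The Reg4-positive libraries held most of the enteroendocrine wells. They made up 6 of 75 kept wells (8.0%, exact 95% interval 2.993 to 16.6%) in Reg4-positive replicate 1 and 55 of 81 (67.9%, 56.6 to 77.85%) in Reg4-positive replicate 2. The Lgr5-positive organoid library held 1 of 74 (1.351%, 0.03421 to 7.301%). Whole organoid replicate 1 held 15 of 276 (5.435%, 3.073 to 8.806%), and whole organoid replicate 2 held 0 of 209, which allows a share of up to 1.435%. The shares of the 2 Reg4-positive replicates stood far apart, and the intervals cover counting error only. Among the YFP plates, plate 1 held 3 of 80 (3.75%), plate 3 held 1 of 74 (1.351%), plate 5 held 2 of 68 (2.941%), and plates 2 and 4 held 0 of 78 and 0 of 35, with upper limits of 3.846% and 8.571%. Lgr5-EGFP plate 2 held 1 of 84 (1.19%) and plate 1 held 0 of 75, with an upper limit of 4.0%. Within Reg4-positive replicate 2, the first 96-well plate gave 4 enteroendocrine wells of 9 kept and the second gave 51 of 72. The 3 plates of whole organoid replicate 1 gave 7, 4 and 4 enteroendocrine wells.

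**Figure D1:**
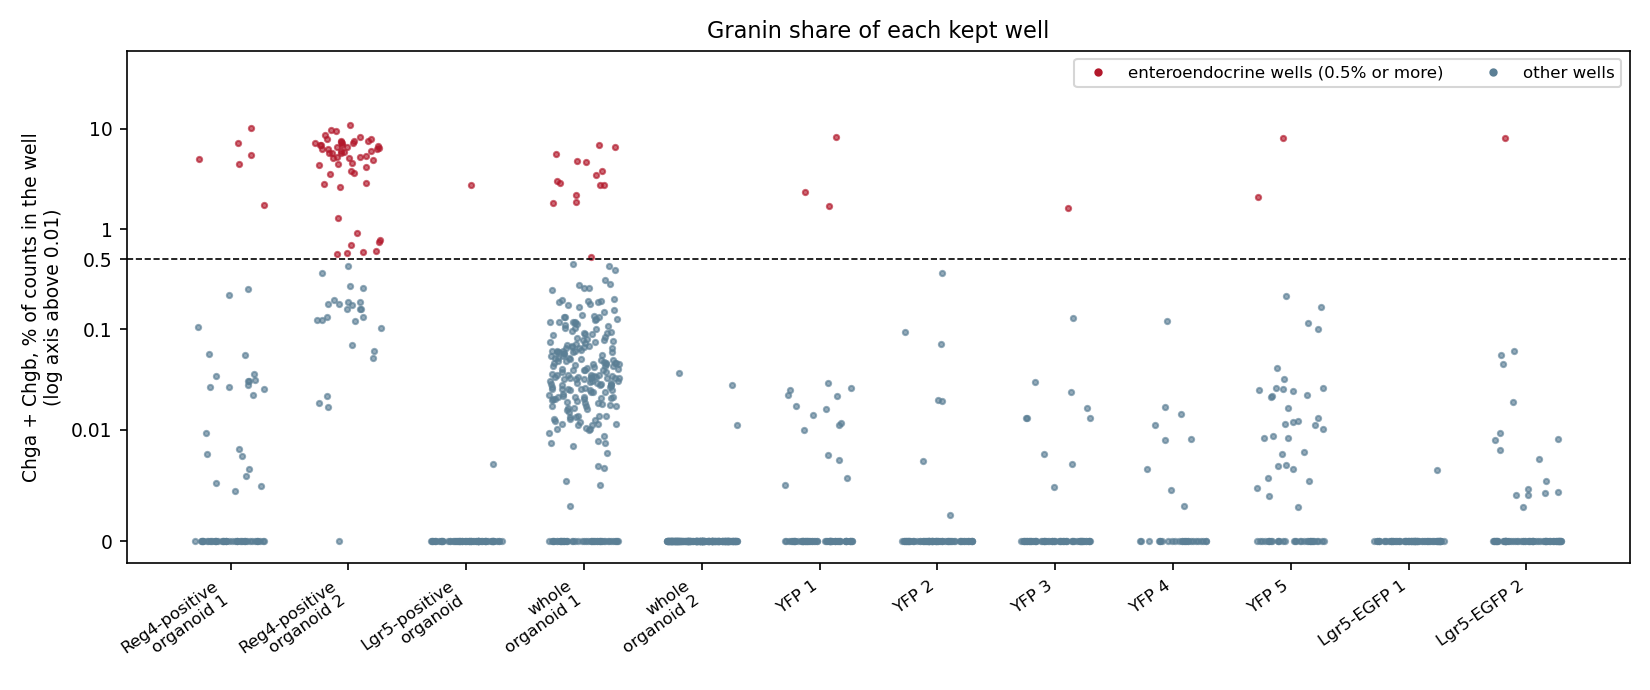
Share of Chga plus Chgb counts (percent of counts, log axis above 0.01) in each kept well of the 12 libraries, with enteroendocrine wells in red and other wells in blue and the threshold of 0.5% as a dashed line. Reg4-positive replicate 2 holds 55 of the 84 red points, whole organoid replicate 1 has a broad band of other wells below the line, and 4 libraries have no red point.

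The granin share of the enteroendocrine wells ran from 0.5261 to 10.8%, with a median of 5.167%. Its median was 2.316% over the 7 intestinal wells (1.618 to 8.187%) and 5.187% over the 77 organoid wells. Of the 84 wells, 45 lay at 5% or more, 24 between 2 and 5%, 6 between 1 and 2% and 9 between 0.5 and 1%. The lowest wells inside the threshold had 0.5261, 0.5682 and 0.5743%, and the highest wells outside it had 0.4527, 0.4305 and 0.43%. Chga exceeded Chgb in 0 of the 84 wells. Chgb had 14 to 887 counts (median 187) and Chga 0 to 359 counts (median 33.5). Fewer than 5 counts of Chga were present in 9 of the 84 wells, so that these wells were chosen by Chgb almost alone.

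The enteroendocrine wells were shallower than the other wells of their library in every library that had them. Their median was 3428 counts against 5426 in other wells of Reg4-positive replicate 1, 4818 against 10784.5 in Reg4-positive replicate 2 and 6273 against 8068 in whole organoid replicate 1. In YFP plate 1 it was 3843 against 7762. Total counts per library ran from 293702 to 2870987. Each of the 96 well barcodes was used by kept wells of more than 1 library, and no kept well was identical to another. Low counts of granins were also spread over other wells in some libraries: at least 1 count of Chgb was found in 96.15% of the other wells of Reg4-positive replicate 2, in 75.86% of those of whole organoid replicate 1, in 30.43% of those of Reg4-positive replicate 1 and in 1.435% of the wells of whole organoid replicate 2. At least 1 count of Tac1 was found in 96.43% of the 84 enteroendocrine wells and in 8.089% of the 1125 other wells, and for this reason a gene is called carried by a well from 5 counts upward. Levels are per transcript 3′ end.

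The label was set beside the 5 marker genes that the rule did not use, namely Tac1, Tph1, Cck, Cpe and Fev. Together they gave 1.736% of the counts of enteroendocrine wells and 0.0677% of those of other wells in Reg4-positive replicate 1. The values were 1.495 against 0.03164% in Reg4-positive replicate 2 and 0.7912 against 0.006547% in whole organoid replicate 1. In the 4 intestinal plates with enteroendocrine wells they gave 0.2179 to 1.395% against 0.000677 to 0.01908%. In each of these libraries the sum was higher in the enteroendocrine wells. Most of it came from Tac1 and Tph1, and Cck on its own was lower in the enteroendocrine wells of Reg4-positive replicate 1. The markers were chosen with earlier results of these data known, so this is a description.

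The regions just before the start of Chga, Tph1 and Cck are shown as those of the granin, serotonin and hormone genes among the markers. RefSeq windows of 250 bases before a start (build GRCm38.p6) were taken for 11 marker, hormone and lineage genes, 12 windows in all, and 3 of them, those of Chgb, Tac1 and Fev, overlap annotated exons and are not printed. Capitals mark TGACG, the core of the cyclic AMP response element, and CAGNTG, a form of the E-box, each searched on both strands. Chga lies at chr12:102554691-102554940 on the plus strand, Tph1 (its upstream start) at chr7:46672538-46672787 on the minus strand and Cck at chr9:121495695-121495944 on the minus strand, and each is written 5′ to 3′ on the strand of its gene.
Chga: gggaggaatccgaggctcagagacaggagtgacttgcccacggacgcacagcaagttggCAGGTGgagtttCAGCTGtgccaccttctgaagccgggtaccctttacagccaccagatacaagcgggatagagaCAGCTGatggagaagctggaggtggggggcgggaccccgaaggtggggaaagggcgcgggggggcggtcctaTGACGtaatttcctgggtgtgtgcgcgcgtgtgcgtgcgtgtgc
Tph1: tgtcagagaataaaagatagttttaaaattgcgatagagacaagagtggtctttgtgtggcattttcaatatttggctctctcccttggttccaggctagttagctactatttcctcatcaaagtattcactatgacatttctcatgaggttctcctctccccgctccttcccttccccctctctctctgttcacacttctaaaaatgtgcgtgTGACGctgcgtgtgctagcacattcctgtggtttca
Cck: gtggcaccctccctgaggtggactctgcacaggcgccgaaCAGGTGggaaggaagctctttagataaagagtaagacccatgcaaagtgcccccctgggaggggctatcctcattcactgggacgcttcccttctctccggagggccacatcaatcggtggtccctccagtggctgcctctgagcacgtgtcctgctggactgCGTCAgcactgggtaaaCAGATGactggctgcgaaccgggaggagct
The TGACG letters began 44 bases before the start of Chga, 36 before that of Tph1 and 47 before that of Cck, where they stand on the opposite strand. The Chga window held 3 matches to CAGNTG, at 191, 179 and 116 bases before the start, the Cck window held 2, at 210 and 30, and the Tph1 window held 0. No match overlapped another. Among the 9 windows clear of exons, TGACG was found in 4, which are the 3 printed and that of a second start of Tph1, and in none of the other 5, which belong to Reg4, Afp, Neurog3, Ucn3 and Sct. The printed windows are therefore a selection of those that hold it. Of 32851 windows of this length in the RefSeq table, 5836 (17.77%) held TGACG, 14723 (44.82%) held CAGNTG and 2418 (7.361%) held both. A match describes the letters of the window and is not evidence of binding.

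Most enteroendocrine wells carried Tac1, the gene of the substance P precursor, together with Tph1, the rate-limiting enzyme of serotonin synthesis in the gut. Of the 84 wells 63 (75.0%) carried both, 7 carried Tac1 without Tph1, 1 carried Tph1 without Tac1 and 13 carried neither. Both genes were carried in 6 of 7 intestinal wells and in 57 of 77 organoid wells. By library, both were carried in 5 of 6 enteroendocrine wells of Reg4-positive replicate 1, 42 of 55 of Reg4-positive replicate 2 and 10 of 15 of whole organoid replicate 1. The single well of the Lgr5-positive organoid library carried neither, with 1 count of Tac1 and 3 of Tph1, and it carried Iapp (10 counts), the gene of amylin, Reg4 (122 counts) and Neurog3 (8 counts). The combination followed the granin share: both genes were carried in 43 of the 45 wells at 5% granins or more, 17 of the 24 between 2 and 5%, 2 of the 6 between 1 and 2% and 1 of the 9 between 0.5 and 1%. Granin share and hormone counts come from the same wells and the same depth, so this is a description with no test.

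Tac1 lies at chr6:7554879-7565834 (plus strand) and Tph1 at chr7:46644641-46672537 (minus strand) of GRCm38, both protein-coding genes. In Reg4-positive replicate 1 the 6 enteroendocrine wells held 48, 63, 45, 39, 67 and 3 counts of Tac1. Over the 55 enteroendocrine wells of Reg4-positive replicate 2 the lowest, median and highest counts were 0, 39 and 108 for Tac1 and 0, 13 and 112 for Tph1. The 15 wells of whole organoid replicate 1 held from 0 to 108 counts of Tac1. The 7 intestinal wells held 30, 20 and 80 counts of Tac1 in YFP plate 1, 6 in YFP plate 3, 35 and 63 in YFP plate 5 and 43 in Lgr5-EGFP plate 2. Their Tph1 counts, in the same order, were 13, 8, 15, 2, 5, 29 and 14. Each of the 7 intestinal wells therefore carried Tac1, and the well of YFP plate 3 was the lowest for both genes. Few counts of these genes lay outside the rule, since the enteroendocrine wells held 91.83% of all Tac1 counts and 95.11% of all Tph1 counts in kept wells, against 11 other wells that carried Tac1 and 4 that carried Tph1. Of those 11 wells, 9 were organoid wells, and 3 of them were wells of Reg4-positive replicate 2 with more than 100000 counts.

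**Figure D2:**
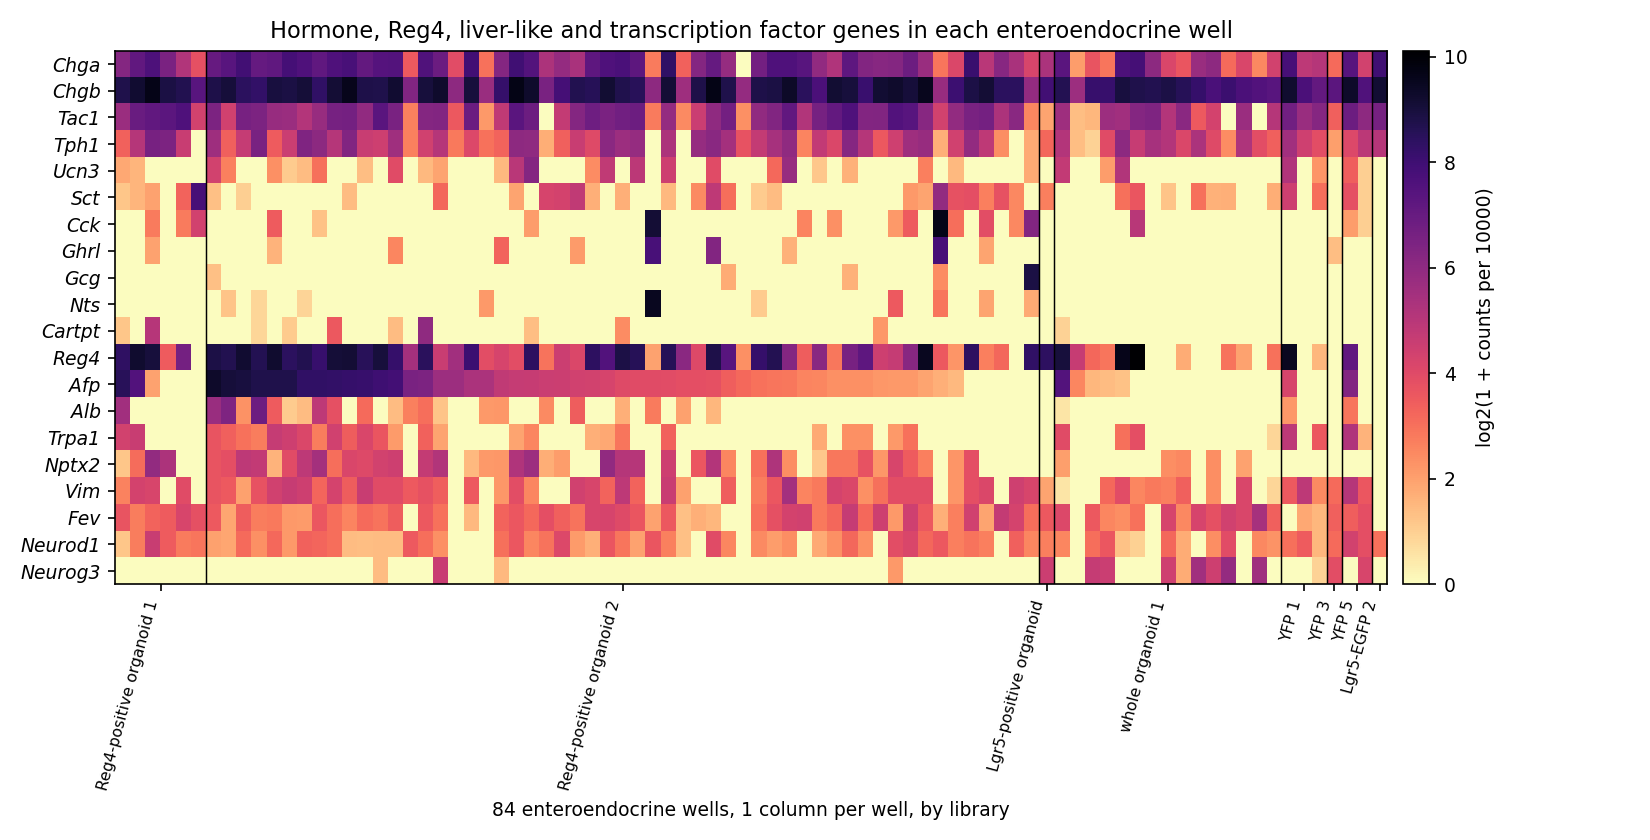
Level of 20 genes, as log2(1 + counts per 10000), in each of the 84 enteroendocrine wells, 1 column per well, grouped by library and ordered within a library by Afp. The rows of Chgb, Tac1 and Tph1 are dark in most columns, Neurog3 is mainly seen in columns of whole organoid replicate 1, and single columns of Reg4-positive replicate 2 are dark for Cck, Ghrl, Gcg or Nts.

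Other peptide hormones were carried by few of the enteroendocrine wells, and mostly beside Tac1. Of 22 peptide hormone genes on the list, 10 were carried by at least 1 enteroendocrine well and 15 by at least 1 kept well. Ucn3, the gene of urocortin 3, was carried by 14 enteroendocrine wells, Sct (secretin) by 12, Cck (cholecystokinin) by 6, Ghrl (ghrelin) by 4, Cartpt by 3, Gast (gastrin) and Iapp by 2 each, and Gcg (glucagon and its related peptides) and Nts (neurotensin) by 1 each. Tac1 with Tph1 and no further hormone was the most frequent combination, in 37 wells, followed by Tac1 with Tph1 and Ucn3 in 11, Tac1 alone in 5, Tac1 with Tph1 and Sct in 4 and Tac1 with Tph1 and Cartpt in 3. In all, 30 wells carried 2 or more peptide hormone genes, 6 carried 3 or more and 9 carried none. These counts depend on the 5-count limit: 66 wells held at least 1 count of 2 or more peptide hormones, and 17 held at least 10.

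Ucn3 was carried beside Tac1, Tph1 and Reg4, which all 14 of its wells carried too. None of those 14 wells was among the 6 that carried Cck, and numbers this small are a description with no test. Sct overlapped with Tac1 in 10 of its 12 wells and with Tph1 in 8. In 2 of the 84 wells Sct was the only peptide hormone carried, 1 of them a well of Reg4-positive replicate 1 with 34 counts of Sct, 3 of Tac1 and 0 of Tph1. All 3 wells that carried Cartpt also carried Tac1 and Tph1.

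A further 3 wells of Reg4-positive replicate 2 had hormone sets unlike the rest, each with a granin share under 1%. The first held 190 counts of Gcg and 32 of Cck, with 2 of Tac1 and 1 of Tph1. The second held 248 counts of Nts, 188 of Cck, 74 of Ghrl and 18 of Gast, with 2 of Tac1 and 0 of Tph1. The third held 376 counts of Cck, 102 of Ghrl and 27 of Sct, with 9 of Tac1 and 1 of Tph1. These 3 wells were singled out after their values had been seen. Between 0.5 and 1% granins, 5 of the 9 wells carried no peptide hormone, and these 3 were among the remaining 4.

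Part of the hormone-carrying wells lay outside the granin rule, and which hormone they carried differed from the wells inside it. Gip and Sst, the genes of GIP and somatostatin, were carried by 0 enteroendocrine wells and by 3 other wells each, and Pyy (peptide YY) by 0 and 2. Ghrl was carried by 4 enteroendocrine wells and 9 others, with 12.78% of its counts inside the rule, and Gcg by 1 and 1, with 26.9% of its counts inside. Sct was carried by 12 and 8 wells, with 38.03% of its counts inside. Of the 29 other wells with 5 or more counts of any of 10 peptide hormones, 18 were intestinal and 11 were from organoids, and at 50 or more counts 10 were intestinal and 2 were from organoids. In intestine these wells, out of 487 other wells, therefore outnumbered the 7 enteroendocrine wells. They were set by a number of counts and the enteroendocrine wells by a share of counts, so the numbers are not on a like scale.

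Some intestinal wells outside the rule carried large numbers of hormone counts with few granin counts. Of the 18 such wells with 5 or more counts, 10 held 50 or more. Others held few, such as a well of YFP plate 4 with 10 counts of Ghrl in 21824. The 5 wells below are examples with high counts. A well of YFP plate 2 held 418 counts of Gip beside 0 of Chga and 12 of Chgb. A well of YFP plate 3 held 363 counts of Sst beside 0 and 2. Another well of that plate held 576 counts of Ghrl beside 2 counts of Chga and 1 of Chgb. In Lgr5-EGFP plate 2, 1 well held 509 counts of Gcg, 256 of Pyy and 21 of Insl5 beside 1 count of Chga and 2 of Chgb. A well of YFP plate 5 held 160 counts of Nts and 76 of Cck beside 2 and 36. Tph1 was at 0 in each of these 5 wells, and Tac1 did not exceed 1 count. Enteroendocrine wells as counted here are thus wells rich in granins and do not cover all wells with hormone transcripts.

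**Figure D3:**
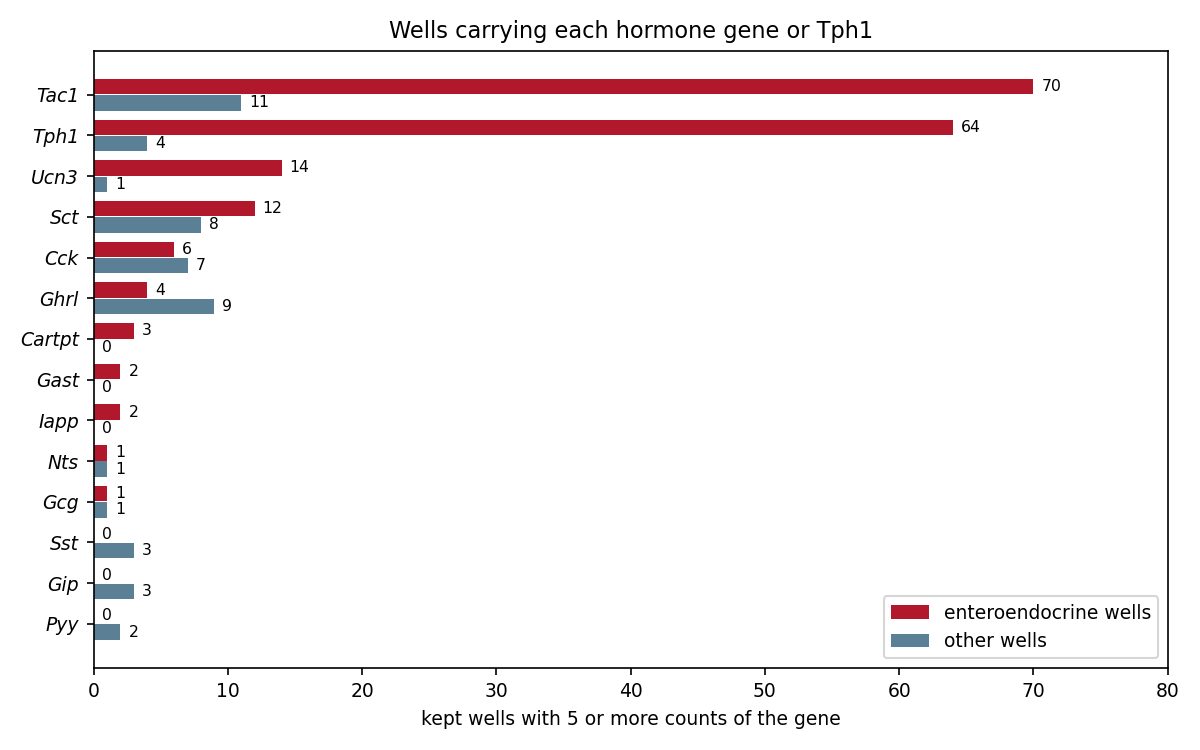
Number of kept wells with 5 or more counts of each hormone gene or Tph1, for enteroendocrine wells (red) above other wells (blue). Tac1 is carried by 70 and 11 wells and Tph1 by 64 and 4, whereas Ghrl is carried by 4 and 9 and Gip and Sst by 0 and 3 each.

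Across organoid libraries the enteroendocrine wells were higher in hormone, granule, prohormone-processing and serotonin genes and lower in Paneth, goblet, enterocyte and cell cycle genes. Counts were summed per library over the enteroendocrine wells and over the other wells, and the 3 libraries with at least 3 enteroendocrine wells were compared with edgeR's quasi-likelihood test with a term for library (Benjamini-Hochberg false discovery rate 0.05). Of 6257 genes tested, 518 (8.28%) were higher and 384 (6.14%) lower in enteroendocrine wells, 14.4% in all, and the median log2 fold change of all genes was -0.07. Without Reg4-positive replicate 2, which holds 55 enteroendocrine wells, the counts were 184 higher and 16 lower of 5743 tested. A filter on low counts set which genes were tested, and it can admit a gene through its enteroendocrine sums alone. The share of a list that rose is therefore partly set by that filter. With no filter 605 of 15027 genes were higher and 616 lower. Values below are CPM, the counts of a gene relative to the TMM-scaled total of its sum of wells, given for Reg4-positive replicate 1, Reg4-positive replicate 2 and whole organoid replicate 1 in that order.

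The hormone genes led by Tac1 rose in the enteroendocrine wells. Tac1 had 9370, 8066 and 3463 CPM in enteroendocrine wells, against 13.53, 192.8 and 23.39 CPM in other wells (log2 fold change 7.12, SE 0.98, edgeR adjusted p = 2.88e-05). Of the 22 peptide hormone genes, 5 passed the filter on low counts, and 4 of these rose, 0 fell and 1 was not called, with a median log2 fold change of 4.90. If no filter was used, 9 of 13 rose and 0 fell. Sct had 1414, 387.2 and 230.3 CPM in enteroendocrine wells, against 29.77, 15.83 and 9.354 CPM in other wells (4.90, SE 0.43). Ucn3 had 106.1, 717.4 and 744 CPM in enteroendocrine wells, against 0, 34.54 and 5.953 CPM in other wells (5.68, SE 0.61). The level of Ucn3 in Reg4-positive replicate 1 rested on single wells with 1 and 2 counts. The adjusted p of Sct and Ucn3 in edgeR was 2.83e-07 and 1.37e-06.

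Cck and Ghrl depended on single libraries and wells. Cck had 247.5, 2361 and 283.4 CPM in enteroendocrine wells, against 749.6, 24.46 and 2.976 CPM in other wells, and was called higher (log2 fold change 4.55, SE 1.31, edgeR adjusted p = 0.0227), although it was lower in enteroendocrine wells of Reg4-positive replicate 1. Its call was lost without Reg4-positive replicate 2 (adjusted p = 0.674) or whole organoid replicate 1 (0.204), and at a threshold of 1% granins its direction turned to a log2 fold change of -0.30 (adjusted p = 0.911). In the other wells of Reg4-positive replicate 1, 276 counts of Cck and 585 of Ghrl lay in 1 well with 0.2525% granins. Ghrl had 35.36, 873 and 0 CPM in enteroendocrine wells, against 1597, 106.5 and 3.827 CPM in other wells, and was not called (log2 fold change -0.03, SE 1.26, edgeR adjusted p = 0.994). Without Reg4-positive replicate 1 it was higher (2.60, adjusted p = 0.024), and without Reg4-positive replicate 2 it was lower (-5.61, adjusted p = 0.0474).

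Genes of serotonin synthesis and storage rose, and the gene of the enzyme that breaks it down fell. Tph1 had 3147, 3928 and 2170 CPM in enteroendocrine wells, against 0, 61.88 and 11.91 CPM in other wells (log2 fold change 7.42, SE 0.85, edgeR adjusted p = 3e-06). Of 10 serotonin pathway genes 7 passed the filter, 5 rose, 1 fell and 1 was not called, while 6 of 10 rose and 1 fell with no filter. Ddc, which turns 5-hydroxytryptophan into serotonin, rose by 3.82 (log2), Slc18a1, which loads monoamines into vesicles, by 4.00, and Gch1 and Qdpr, which make and recycle the tetrahydrobiopterin cofactor, by 3.77 and 2.37. Maoa, which degrades serotonin, had 0, 22.77 and 150.6 CPM in enteroendocrine wells, against 67.66, 122.3 and 551.1 CPM in other wells (-2.16, SE 0.46, edgeR adjusted p = 0.00248). It was not called without Reg4-positive replicate 2 (-2.11, adjusted p = 0.202) or at a threshold of 0.25% granins (-0.70, adjusted p = 0.397). Pts, another enzyme of cofactor synthesis, was not called (0.19, adjusted p = 0.854).

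The machinery of dense-core granules rose as a group. Of the 20 granin and granule genes, 15 other than Chga and Chgb passed the filter, of which 14 rose and 1, Syt7, was not called (log2 fold change 1.68, edgeR adjusted p = 0.0682), with a median of 4.75. Leaving out the filter gave 17 of 18 that rose. Among them were the secretogranin gene Scg3 (5.81), the neuropeptide precursor Vgf (6.87), the granule membrane protein genes Ptprn (6.28) and Ptprn2 (4.56), and the vesicle gene Rab3c (4.77). Of 8 prohormone-processing genes 4 passed the filter and 4 rose, while 4 of 6 rose with no filter. Cpe, the carboxypeptidase that trims prohormones, had 1131, 1169 and 699.7 CPM in enteroendocrine wells, against 97.42, 38.86 and 20.83 CPM in other wells (4.53, SE 0.50, edgeR adjusted p = 1.95e-06). The prohormone convertase gene Pcsk1, its inhibitor Pcsk1n and the amidating enzyme gene Pam rose by 5.68, 6.59 and 4.96.

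Transcription factors of the endocrine lineage rose in the same wells. Of 23 on the list 15 passed the filter, 13 rose and 2, Mlxipl and Sox4, were not called (log2 fold changes 0.29 and 0.70), with a median of 4.41. When the filter was left out, 15 of 22 rose and 0 fell, with a median of 3.30. Fev, an ETS factor that also marks serotonergic neurons, had 919.3, 903.4 and 1169 CPM in enteroendocrine wells, against 2.706, 40.29 and 17.43 CPM in other wells (5.75, SE 0.59, edgeR adjusted p = 8.34e-07). Neurod1 (4.97), Insm1 (4.95), Nkx2-2 (4.61), Lmx1a (5.32), Rfx6 (4.88) and Pax6 (4.41), all factors of gut or pancreatic endocrine differentiation, rose with it. Neurog3, which starts the lineage, had 0, 75.91 and 1258 CPM in enteroendocrine wells, against 0, 18.71 and 73.56 CPM in other wells (3.30, SE 0.56, edgeR adjusted p = 0.000401). Its level came mainly from whole organoid replicate 1, and without Reg4-positive replicate 2 the log2 fold change was 4.05 (SE 0.91, adjusted p = 0.0541).

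**Figure D4:**
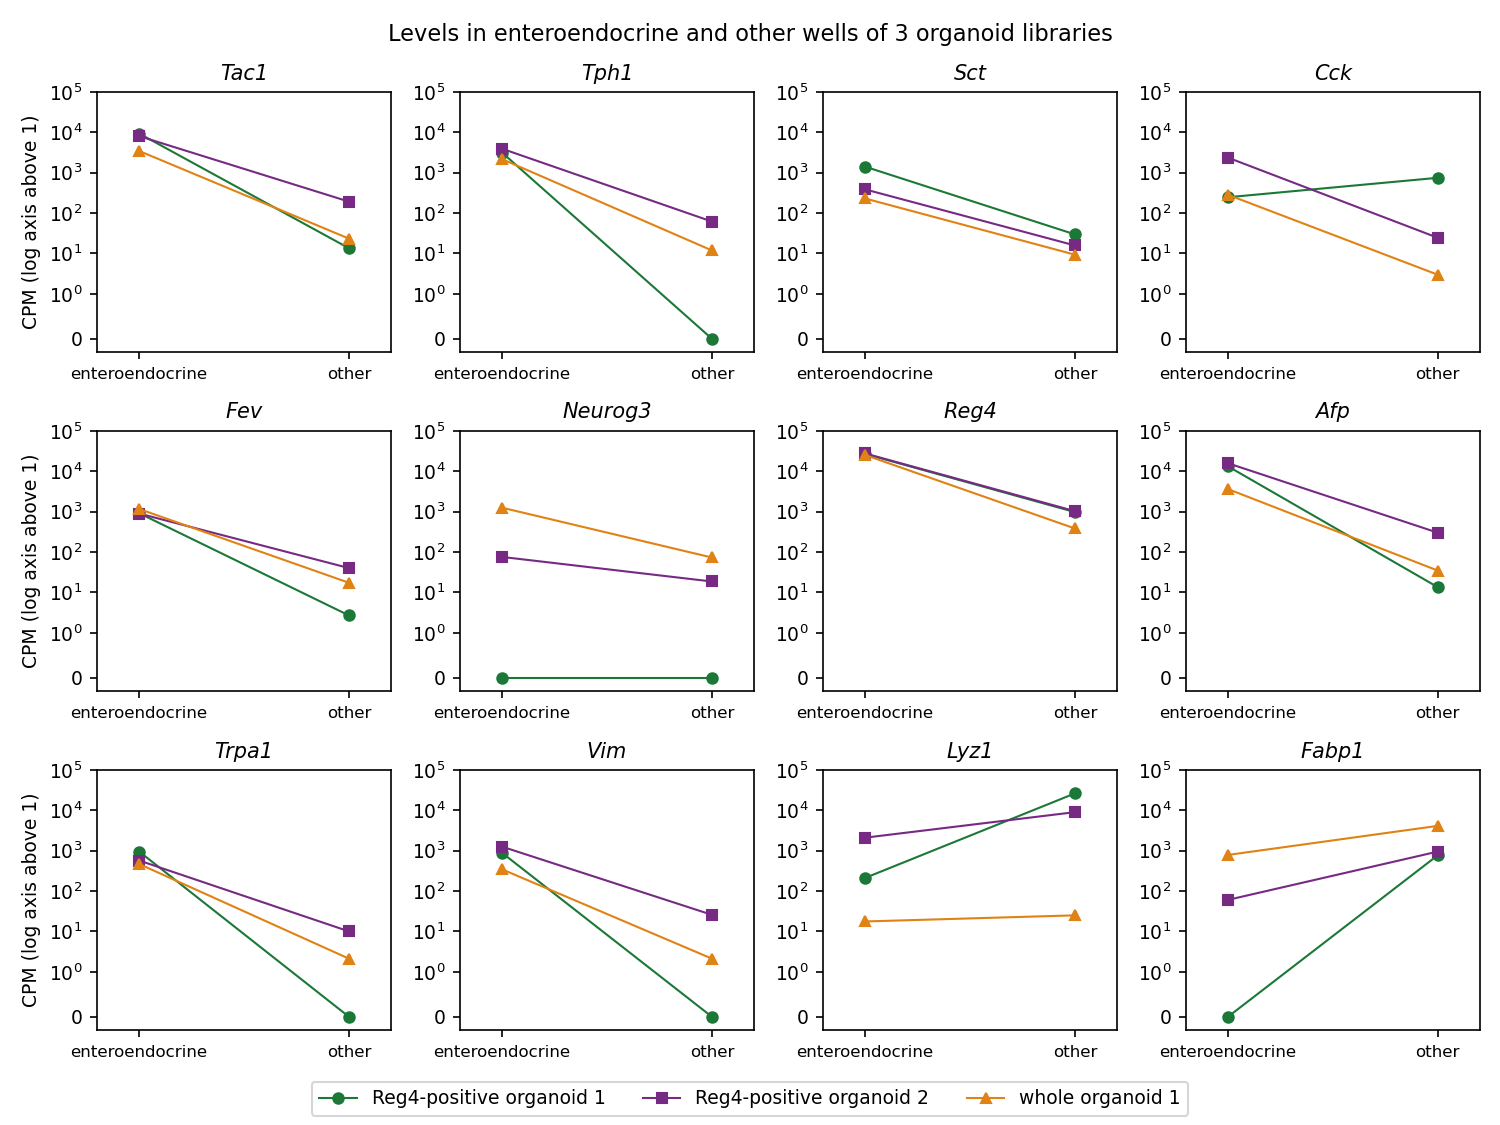
CPM (log axis above 1) of 12 genes in the enteroendocrine wells, at left, and the other wells, at right, of 3 organoid libraries, each library joined by a line. Lines of Tac1, Tph1, Sct, Fev, Reg4, Afp, Trpa1 and Vim fall from left to right in all 3 libraries, whereas the line of Cck rises in Reg4-positive replicate 1 and Neurog3 is at 0 on both sides there.

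Genes of sensing and excitability followed. Of 15 on the list 6 passed the filter, 5 rose and 1, Ffar4, was not called (log2 fold change 0.63). The same number, 5, rose among the 11 tested with no filter. Trpa1, an ion channel opened by irritants, had 954.6, 573.1 and 469.4 CPM in enteroendocrine wells, against 0, 10.07 and 2.126 CPM in other wells (7.16, SE 0.59, edgeR adjusted p = 2.41e-07). The sodium channel gene Scn3a rose by 5.91, the short-chain fatty acid receptor gene Ffar2 by 4.50 and the calcium channel gene Cacna1a by 3.28. Beyond the lists, the largest increases that met the naming rule included Cplx1 (8.19), a regulator of vesicle fusion, Nptx2 (7.36), a neuronal pentraxin, Neb (7.28) and Ly6a (7.04). The level of Neb came mainly from whole organoid replicate 1. It had 35.36, 64.53 and 389.7 CPM in enteroendocrine wells, where 35.36 CPM is the level of 1 count in Reg4-positive replicate 1. Pak3 and 1600029D21Rik had 0 counts in all other wells of the 3 libraries and 53 and 24 counts in enteroendocrine wells. Their levels were at least 166.7-fold and 75.48-fold higher when the other wells are set to the limit of 3 counts over the group. Both passed the filter through their enteroendocrine sums alone and were picked by the size of the change, so these values are a description. In Reg4-positive replicate 1, 1600029D21Rik had 35.36 CPM in enteroendocrine wells, the level of 1 count.

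Reg4 and liver-type secreted proteins were high in the enteroendocrine wells. Reg4, a secreted lectin of the regenerating family, had 27080, 27780 and 25420 CPM in enteroendocrine wells, against 982.4, 1035 and 385.7 CPM in other wells (log2 fold change 5.19, SE 1.15, edgeR adjusted p = 0.00351). Its locus drives the reporter of the Reg4-positive sort, and both kinds of wells in those libraries passed that sort. The wells of the unsorted whole organoid library showed the same direction, but without that library it was not called (4.65, SE 3.06, adjusted p = 0.372), nor without Reg4-positive replicate 2 (5.33, SE 2.53, adjusted p = 0.37), while the log2 fold change stayed of similar size. Afp, the gene of the fetal liver protein alpha-fetoprotein, had 13290, 15880 and 3631 CPM in enteroendocrine wells, against 13.53, 302.2 and 34.87 CPM in other wells (7.15, SE 1.09, edgeR adjusted p = 9.83e-05). Ttr, the gene of the carrier protein transthyretin, rose by 2.71. Of the 8 genes on this list 3 passed the filter and 3 rose, while 5 of 7 rose with no filter.

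Markers of other epithelial cells and of division were lower. Of 16 Paneth genes 14 passed the filter, 8 fell and 0 rose, with a median log2 fold change of -3.20 against -0.07 over all genes. Defa24, a defensin gene, had 1096, 8927 and 0 CPM in enteroendocrine wells, against 80230, 29050 and 171.8 CPM in other wells, and missed the threshold (-4.24, SE 1.60, edgeR adjusted p = 0.0858). It was called lower by DESeq2 (-4.65, adjusted p = 1.86e-05), at a threshold of 1% granins (-5.24, adjusted p = 0.00843) and without Reg4-positive replicate 1 (-2.38, adjusted p = 0.0144). Defensin genes include near-identical copies, so single members are uncertain. Of 16 goblet genes 9 passed, 7 fell and 0 rose (median -2.62), and of 20 enterocyte genes 16 passed, 12 fell and 0 rose (median -2.29). Fabp1, a fatty acid binding protein of enterocytes, fell by 3.45 (log2), and Alpi, the intestinal alkaline phosphatase, fell by 3.81. All 16 tested cell cycle genes of 20 fell (median -2.68), among them Mki67 at -2.92 and Pcna at -2.15. These decreases rested on Reg4-positive replicate 2 for their calls, since without it 0 of 13 cell cycle, 0 of 11 Paneth, 0 of 16 enterocyte and 2 of 9 goblet genes were called lower, with medians of -3.35, -5.30, -2.89 and -2.68. At a threshold of 0.25% granins, 5 of 18 cell cycle genes were called (median -1.22), 7 of 15 Paneth (median -2.79), 6 of 16 enterocyte (median -1.17) and 1 of 10 goblet genes (median -1.29).

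Of the stem cell genes few were called. Of 14 on the list 10 passed the filter, 1 rose, 2 fell and 7 were not called, with a median log2 fold change of -0.75 against -0.07 over all genes. The summed list gave 0.06629, 0.06182 and 0.09362% of counts in enteroendocrine wells, against 0.1632, 0.1607 and 0.06117% in other wells, so it was lower in both Reg4-positive libraries and higher in the whole organoid one. Sp5, a target of Wnt signalling, rose by 3.02, a call that rested on whole organoid replicate 1, without which the log2 fold change was 1.10 (adjusted p = 0.287), and that DESeq2 did not make (adjusted p = 0.0515). Slc12a2 fell by 2.30, without a call when Reg4-positive replicate 2 was left out (-3.18, adjusted p = 0.108), while Lgr5 was not called (-1.75, edgeR adjusted p = 0.0583). Of 9 secretory progenitor genes 5 passed and 2 rose, namely Neurog3 and the Notch ligand gene Dll4 (3.29), with Hes6 (0.54), Cbfa2t3 (1.18) and Dll1 (-0.77) not called.

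**Figure D5:**
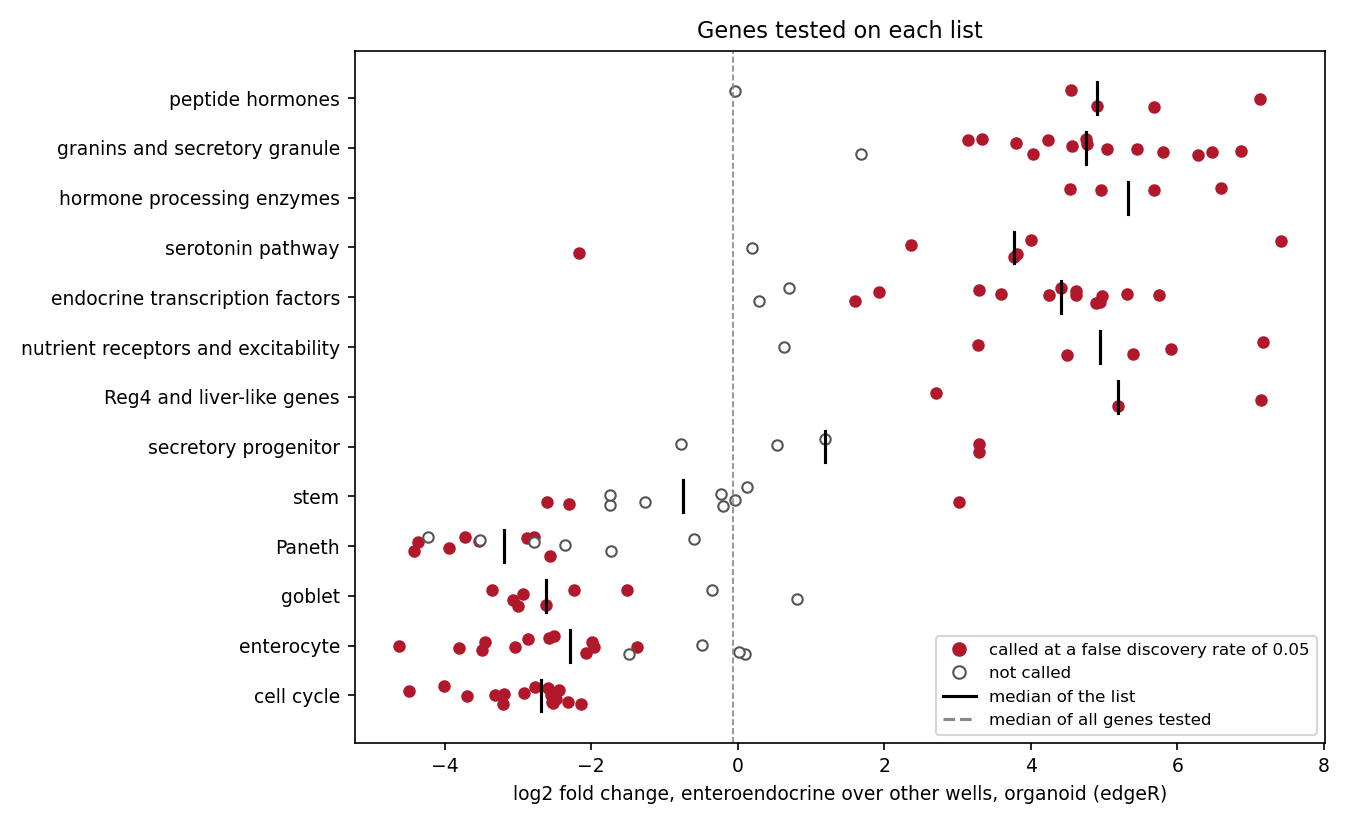
Log2 fold change of each tested gene, enteroendocrine over other wells of organoids, by gene list. Filled red points passed a false discovery rate of 0.05, open points did not, black bars are list medians and the dashed line is the median of all genes tested (-0.07). Hormone, granule, processing and transcription factor lists lie to the right of it, and Paneth, goblet, enterocyte and cell cycle lists to the left.

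Transcripts of other cell types were present in the enteroendocrine wells, and 3 wells held most of those of the Paneth list. The 16 Paneth genes together gave 0.2776, 2.045 and 0.0189% of counts in enteroendocrine wells, against 15.55, 6.67 and 0.03622% in other wells of Reg4-positive replicate 1, Reg4-positive replicate 2 and whole organoid replicate 1. In Reg4-positive replicate 2, 3 wells with 0.5743 to 0.781% granins held 1869 of the 2352 counts of Defa24 and 286 counts of Lyz1, the lysozyme gene of Paneth cells, against 269 of Lyz1 in the other 52 wells. They held 13 counts of Tac1 in all. Paneth genes gave 23.8% of the counts of these 3 wells and 0.62% of those of the other 52, so the rule admitted wells rich in Paneth transcripts just above its threshold. They were singled out after their values had been seen. The 16 goblet genes gave 0.2237, 0.4607 and 0.1341%, against 2.356, 0.9909 and 0.102%. The 20 enterocyte genes gave 0.1077, 0.1948 and 0.9533%, against 0.3169, 0.4404 and 4.464%. The Paneth and enterocyte sums were lower in the enteroendocrine wells of each of the 3 libraries, and the goblet sum in those of the 2 Reg4-positive libraries. The tuft list gave 1, 5 and 1 counts, and the 14 immune genes 0, 0 and 1, so those cell types were close to absent. Vim, the gene of vimentin and on the stromal list, rose (log2 fold change 6.71, edgeR adjusted p = 3.11e-07), and no more than 3 of the 10 stromal genes had a count in the enteroendocrine wells of any of these 3 libraries. The part of these transcripts in the results was not tested.

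Within the 84 wells, those that carried Neurog3 had lower summed levels of Reg4 and Afp, and most of them came from 1 library. Neurog3 was carried by 11 wells, 7 of 15 in whole organoid replicate 1 and 1 of 55 in Reg4-positive replicate 2. Of these 11 wells 9 carried Fev, 6 carried Tac1, 6 carried Neurod1, 4 carried Reg4, 1 carried Afp, and 0 carried Trpa1, Ucn3 or Lmx1a. Of the other 73 wells 55 carried Reg4, 39 Afp, 29 Fev, 21 Trpa1 and 14 Ucn3. The genes were picked after their values had been seen, none of these differences was tested, and with 11 wells a 0 for Ucn3, Trpa1 or Lmx1a says little. Over the same 11 wells the summed level of Reg4 was 2258 unscaled CPM (relative to the plain total of the wells), against 27930 in the other 73 wells, and that of Chga was 2944 against 12410. Chgb differed less, at 29840 against 39840 unscaled CPM. The wells with Neurog3 were not shallower, with a median of 6426 counts against 4759. Single wells with Neurog3 departed from the sums. That of the Lgr5-positive organoid library held 122 counts of Reg4 in 3635, and that of Reg4-positive replicate 2 held 36 counts of Afp. In whole organoid replicate 1, which gave 7 of the 11 wells, the median of Afp was 0 with and without Neurog3. The part of library in the sums was not tested.

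The wells with and without Neurog3 can be set side by side within whole organoid replicate 1, where no reporter had been used. Its 7 wells with Neurog3 had 10 to 52 counts of that gene, 1 to 30 counts of Chga (median 12) and 0 to 9 counts of Reg4. Its 8 wells without Neurog3 had 2 to 359 counts of Chga (median 18) and 0 to 1138 counts of Reg4. Of those 8 wells, 3 held 549, 1138 and 1138 counts of Reg4, with 139, 238 and 359 counts of Chga and 5, 14 and 33 counts of Trpa1. No other enteroendocrine well of this library held more than 15 counts of Reg4 or more than 1 of Trpa1. Tac1 had a median of 3 counts in the 7 wells with Neurog3 and 30.5 in the 8 wells without it. These are wells of 1 passage of 1 culture, and the split is a description with no test.

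Afp was carried by 40 wells, of which 37 carried Reg4. It was carried by 35 of 55 enteroendocrine wells of Reg4-positive replicate 2 and by 1 of 15 of whole organoid replicate 1. All 8 wells that carried Alb, the albumin gene, and all 6 that carried Lmx1a carried Afp too, as did 18 of 21 wells with Trpa1, 11 of 14 with Ucn3 and 23 of 27 with Nptx2. In the 40 wells with Afp the summed level was 14760 unscaled CPM of Chga, 878.2 of Trpa1 and 1673 of Nptx2, against 6615, 193.6 and 419.5 in the 44 wells without it. Tac1 was close between them over all libraries, at 6721 against 6270 unscaled CPM. Within Reg4-positive replicate 2, Tac1 was lower in the 35 wells with Afp, at 6730 against 8988 in the 20 without it. Chga, Trpa1 and Nptx2 kept their direction there. The wells with Afp were deeper, with a median of 5618.5 counts against 4204.5. The parts of depth and of library were not tested.

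In intestine the 7 enteroendocrine wells were spread over 4 plates, and YFP plate 1 alone held 3, so no test was possible under the minimum of 3 wells per library. Tac1 had 130, 6 and 98 counts in the enteroendocrine wells of YFP plates 1, 3 and 5 and 43 in that of Lgr5-EGFP plate 2, against 2, 0, 12 and 17 counts in all other wells of those plates. Tph1 had 36, 2, 34 and 14 counts, against 1, 0, 1 and 0. Reg4 had 205, 0, 43 and 0 counts, of which 203 lay in 1 well of YFP plate 1 that also carried Ucn3 (10 counts), Afp (5) and Trpa1 (8). The 43 counts of YFP plate 5 lay in a well with 24 counts of Afp and 11 of Trpa1, so both intestinal wells that carried Reg4 carried Afp and Trpa1 as well. Neurog3 was carried by 2 of the 7 wells, with 9 counts in YFP plate 3 and 17 in YFP plate 5. Nptx2 had 0 counts in each of the 7 wells and was carried by 27 of the 77 organoid wells.

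When every plate with at least 1 enteroendocrine well was admitted, edgeR tested 4932 genes in intestine, of which 51 (1.03%) were higher and 230 (4.66%) lower in enteroendocrine wells, 5.7% in all, with a median log2 fold change of -0.83 over all genes. The enteroendocrine sums of YFP plate 3 and Lgr5-EGFP plate 2 were 1 well each, and that of YFP plate 5 was 2 wells. The SE and calls of this fit therefore rest on few cells. Leaving out 1 plate at a time gave 26 to 52 higher and 62 to 211 lower, the smallest numbers without YFP plate 5. Tph1 (log2 fold change 10.27, SE 0.60) and Tac1 (8.69, SE 0.55) rose, and Scn3a (7.60), Slc18a1 (6.14), Pcsk1 (5.91), Insm1 (5.55), Neurod1 (5.44), Cpe (4.04), Ffar2 (4.04) and Ptprn2 (3.98) rose with them. Of 7 serotonin pathway genes tested 4 rose and 0 fell, and of 5 tested transcription factors 2 rose. All 14 tested Paneth genes fell, as did 9 of 11 goblet genes. Of 4612 genes tested in both origins, 49 were called higher in both, which is 98.0% of the 50 called in intestine and 23.9% of the 205 called in organoids. For lower calls the 79 shared genes were 35.75% of those in intestine and 22.83% of those in organoids, and 0 genes were called in opposite directions.

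With all libraries that held enteroendocrine wells, no gene was called for a difference between the enteroendocrine contrasts of intestine and organoids. In a fit of all 8 libraries with at least 1 enteroendocrine well, the difference between the intestinal and the organoid contrast was called by edgeR for 0 of 5439 genes (0.0%), while 383 had an unadjusted p under 0.05 and the smallest adjusted p was 0.05624. The contrast of Reg4 was lower in intestine than in organoids (difference of log2 fold changes -3.72, SE 1.03, adjusted p = 0.176). The differences were 2.84 (SE 1.09) for Tph1, 1.72 (SE 0.96) for Tac1 and -2.15 (SE 0.68) for Sct, none of them past the threshold. The count rested on single libraries, some of them with only 1 enteroendocrine well. Without the Lgr5-positive organoid library and its 1 enteroendocrine well, 9 genes were called with a lower contrast in intestine, among them the goblet genes Tff3 (-4.18, adjusted p = 0.0178) and Fcgbp (-10.48, adjusted p = 0.0128). Without YFP plate 1, Sct was called (-3.80, SE 0.85, edgeR adjusted p = 0.043). Tff3 and Fcgbp were picked after their values had been seen. Origin went together with mouse, reporter and sort, so these cannot be told apart.

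Reg4-positive organoids and whole organoids could be compared for the enteroendocrine wells alone, as 2 libraries against 1, since whole organoid replicate 2 had none. The lone whole organoid library was assumed to vary like the Reg4-positive ones, since its own spread could not be measured, so the p-values rest on that assumption. Of 3127 genes tested with edgeR, 39 (1.25%) were higher and 30 (0.959%) lower in the Reg4-positive wells, 2.21% in all, and DESeq2 called 0, with 57 at an unadjusted p under 0.05. Neurog3 had 0 and 20 counts in the enteroendocrine wells of the 2 Reg4-positive libraries, against 142 in those of the whole organoid library (log2 fold change -4.40, SE 0.76, edgeR adjusted p = 4.02e-06). In the other wells of these libraries it had 0 and 16.52 unscaled CPM, against 62.92. Hdc, which makes histamine, had 1 and 4 counts against 31 (-3.93), and Sp5 had 1 and 13 against 26 (-2.29). The early response genes Nr4a1 (-5.26), Atf3 (-5.22) and Fosb (-3.64) were lower as well.

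Several secretory genes were called higher in the Reg4-positive enteroendocrine wells by edgeR, and by DESeq2 none was. Alb had 35 and 303 counts in the 2 Reg4-positive libraries, against 1 in the whole organoid library (log2 fold change 6.92, SE 1.30, edgeR adjusted p = 1.52e-05). Cartpt had 12 and 47 counts against 2 (3.79), Scg5 10 and 138 against 4 (3.64), Scg2 2 and 56 against 2 (3.23), Nptx2 36 and 463 against 15 (3.50), and Slc18a2, a vesicular monoamine transporter, 4 and 43 against 1 (4.00). Nts, Ghrl and Gcg were also called, with 0 and 261, 1 and 230, and 0 and 195 counts, against 0 for each gene in the whole organoid library. Single wells held most of the counts of several of these genes. In Reg4-positive replicate 2, 1 well each held 248 counts of Nts, 190 of Gcg, 34 of Cartpt and 30 of Scg2, and 3 wells held 218 of Ghrl and 238 of Alb. In Reg4-positive replicate 1, 1 well held all 35 counts of Alb and 1 held 11 of Cartpt. Scg5 and Nptx2 were spread more widely, over 44 and 42 of the 55 wells of Reg4-positive replicate 2. Tac1 (1.32, SE 0.91), Tph1 (0.69, SE 0.86), Reg4 (0.10, SE 0.87) and Afp (1.99, SE 0.95) were not called between these enteroendocrine wells.

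Genes of other cell types moved in this comparison too, and each one named here stood on the same side, between the Reg4-positive libraries and the whole organoid library, in the other wells. Defa24 had 1284 and 8122 unscaled CPM in the enteroendocrine wells of the Reg4-positive libraries, against 0 in those of the whole organoid library, and 62920 and 25650 against 146.9 in the other wells. In Reg4-positive replicate 2 the enteroendocrine level came mostly from the 3 wells rich in Paneth transcripts. Reg1, an enterocyte gene, had 0 and 55.25 unscaled CPM in the Reg4-positive enteroendocrine wells, against 1143 in the whole organoid ones, and 382 and 546.4 against 8833 in the other wells. For Alb the other wells held 2.122 and 12.71 against 1.818 unscaled CPM. The part of transcripts from other wells in these calls was not tested, and sort, genotype and culture cannot be told apart.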

How the data were processed

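In the deposited tables genes are rows and wells are columns. The values the authors deposited are expected counts, which estimate transcripts from the distinct 4-base molecular barcodes and need not be whole. BWA 0.6.2-r126 and the build mm10 (GRCm38) are named in the submitters' processing notes, while the counting and its annotation are given in no source used here. With 256 possible barcodes, high counts of a gene in a well are imprecise.

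Counts were rounded (largest change 0.495) and 92 spike-in rows and the dsRed row were left out, which left 23538 gene rows. Wells under 1500 counts were dropped. Each kept well was enteroendocrine or other by its share of Chga plus Chgb, and both kinds were summed per library. Groups came from the labels. For the organoid library sorted for Lgr5 the table was found by its name alone, and 192 columns of 2 tables that matched no label were not used. For each Reg4-positive replicate the labels list more samples than the tables used here have plates.

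Sums were tested in R 4.3.3 with the quasi-likelihood test of edgeR 4.0.16 after filterByExpr and TMM scaling, at a Benjamini-Hochberg false discovery rate of 0.05, with DESeq2 1.42.0 as an alternative. Chga and Chgb were removed before adjustment. The test was also run on simulated counts with a fixed spread. That spread was not taken from these data, so the run cannot show how the test performs on them. SE is that of the log2 fold change. Exact binomial intervals (95%) and the limit for a count of 0, taken as 3 counts, hold for counting error alone. Named genes were the markers, up to 8 members of the hormone, serotonin and transcription factor lists and up to 4 of each other list by level, and up to 10 called changes in each direction with at least 50 CPM and 1 direction in every library. Values are given for part of them, and some are not reported here. Other genes are named as examples of their list or after their values were seen. The members, the 17 gene lists and the tests were chosen with earlier results of these data known. Coordinates are from GENCODE vM21 and sequences from RefSeq, both on GRCm38, and 104 of 108 named genes matched.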

Additional observations from a re-analysis of the deposited data

How the results depend on the processing

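The number of genes tested differed between settings, so it is given with each count. In organoids 100 of 1011 genes were higher in enteroendocrine wells with wells thinned to 1500 counts, against 518 of 6257 in the main fit. The number was 325 of 5874 with every library that had at least 1 enteroendocrine well. It was 322 of 6257 without library as a term and 326 of 6994 at a threshold of 0.25%. The number lower was 616 of 15027 without a filter on low counts and 59 of 1011 with thinning. It was 80 of 6257 without library as a term and 90 of 6994 at 0.25%. Leaving out 1 library gave 184 to 503 higher and 16 to 365 lower of 5743 to 7437 tested, the smallest numbers without Reg4-positive replicate 2. DESeq2 gave 379 and 299 of 6257, and another scaling (RLE) gave 478 and 487 of 6257 and moved the median of all genes by -0.11 (log2). Of 97 named genes tested, 79 were called. Of 1280 repeats of their values under the alternatives, 1132 kept the call or its absence, 112 lost the call and 33 gained it. A further 3 changed sign where the main or the repeated fit made a call (Cck -0.30 at a threshold of 1%, Ghrl 2.60 without Reg4-positive replicate 1, Nr4a1 -0.80 without whole organoid replicate 1). The 1132 include repeats of Ghrl, called in neither fit, whose sign turned from -0.03. They gave 3.50 at a threshold of 0.25%, 0.09 with a minimum of 3000 counts and 0.43 without wells above 100000 counts. Leaving out 1 library gave log2 fold changes of -5.61 to 2.60 for Ghrl and -0.80 to 3.05 for Nr4a1.

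In intestine leaving out 1 plate gave 26 to 52 higher and 62 to 211 lower, and for the difference between origins 0 to 9 genes lower, 9 without the Lgr5-positive organoid library and 1 without YFP plate 1. Other alternatives were not run for these 2 fits. Between Reg4-positive and whole organoid enteroendocrine wells, DESeq2 called 0 in each direction, the number higher was 22 without a filter, 19 with thinning and 25 at 1%, and the number lower was 10 with thinning, 104 at 0.25% and 51 with a minimum of 3000 counts per well. The genes tested in this comparison numbered 3127 in the main fit, 12337 without a filter and 619 with thinning. They numbered 3151 at 1%, 5975 at 0.25% and 3335 with a minimum of 3000 counts per well. No paired analysis was possible because whole organoid replicate 2 has no enteroendocrine well, so that the groups share a single replicate number.

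Wells with 2 or more peptide hormones numbered 66, 50 and 17 at limits of 1, 2 and 10 counts and 53 at 1 count after thinning. Wells with none numbered 1, 5, 16 and 4 under the same limits, and 19, 4 and 4 at thresholds of 0.25% and 1% and a minimum of 3000 counts. The cause of these changes was not tested.

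Precision was limited by 1543 to 22427 counts per enteroendocrine well in Reg4-positive replicate 1 and whole organoid replicate 1, by 7 intestinal wells and by 1 whole organoid library with enteroendocrine wells.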

Other observations

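The table of Reg4-positive replicate 1 has a row for the dsRed reporter, which entered no total and no test. Its enteroendocrine wells held 7 counts of dsRed in 3 of 6 wells, and its other wells held 56 counts in 28 of 69. Reg4 itself had 766 counts in the enteroendocrine wells and 363 in the others.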
